A study of Mus musculus with 16 samples.

Results

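Brown and white preadipocytes that had both been treated with Fgf8b were compared, using 8 of the 16 RNA-seq libraries of the study: the 4 libraries of white cells and the 4 libraries of brown cells that received Fgf8b. The other 8 libraries, 4 of each depot, hold control cells and serve here as the reference for how far each depot difference was already present without the factor. They also entered the same fit, so they contribute to the standard errors and p-values of the Fgf8b comparison. Preadipocytes are the fibroblast-like precursors of fat cells. The white ones were grown from inguinal fat and the brown ones from interscapular fat, both from the stromal-vascular fraction of mice of the strain C57BL/6N UCP1 reporter, which all 4 groups share. The fraction is a mixture of cells and not a sorted population, and the labels state neither the dose and time of Fgf8b nor the sex and age of the mice. The design text speaks of 3 cultures for each preparation whereas each group has 4 libraries, so some libraries may share a culture, and p-values measure the spread between libraries, which may be technical. Libraries are numbered in one series, with 1 to 8 white and 9 to 16 brown, and depot and library number cannot be told apart.

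Brown and white fat descend from different parts of the embryonic mesoderm, and cultured precursors keep transcription factors of their site of origin, such as Zic1 in the interscapular depot and posterior Hox genes in the inguinal depot. Brown adipocytes burn fuel for heat through uncoupling protein 1, Ucp1, which precursors normally hold at a low level until they mature. Fgf8b is a splice form of fibroblast growth factor 8; it binds FGF receptors and activates the RAS-ERK kinase cascade, which induces immediate early transcription factors together with its own brakes, the Sprouty proteins and the dual specificity phosphatases.

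Levels are given as RPKM (reads scaled by transcript length and library size) of one transcript entry per gene, and depot differences as log2 of brown over white with their standard error (SE), computed from the summed entries of a gene plus 0.5 RPKM. A gene was called where its Benjamini-Hochberg adjusted p in limma was below 0.05 over the 15220 genes tested. Differences between levels near 0 RPKM are damped by the added 0.5 RPKM, so differences of weakly expressed genes are understated. The libraries held the equivalent of 16200000 to 20100000 reads in the white and 14600000 to 16000000 reads in the brown Fgf8b group, so 1 RPKM of a 2 kb transcript stands for 27.4 to 40.2 reads over all libraries. Libraries of one Fgf8b group differed from each other by a median of 0.078 to 0.103 on the log2 scale, and no pair was identical.

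The labels call the source primary adipocytes and the design calls the cells preadipocytes, and markers of adipocyte precursors were present in both groups. Pdgfra, the growth factor receptor that marks adipocyte precursors, stood at 98.1 ± 1.64 RPKM (SD, n = 4) in white and 85.3 ± 1.05 RPKM (SD, n = 4) in brown cells, and Pdgfrb, Ly6a, Cd34 and Thy1 were all expressed. The summed level of the 29 preadipocyte markers ran from 2554.0 to 2912.9 RPKM in the white and from 2790.5 to 2910.0 RPKM in the brown libraries. Genes of mature adipocytes were nearly silent, with Adipoq at 0.0207 RPKM in white and 0.0138 RPKM in brown cells and Lep listed at 0 in all 8 libraries. The 14 mature adipocyte markers summed to 8.02 to 8.9 RPKM in white and 13 to 15.9 RPKM in brown libraries, with 12 of the 14 under 1 RPKM in every library. Markers of leukocytes summed to 7.06 to 7.7 RPKM in white and 9.62 to 10.3 RPKM in brown libraries with 7 of 17 at 0, and those of endothelial cells to 22.9 to 25.9 and 32.5 to 36.7 RPKM with 1 of 15 at 0. Schwann cell markers summed to 78.3 to 81.8 RPKM in white and 68 to 69.7 RPKM in brown libraries, most of it Pmp22, a myelin protein (76.5 and 63.2 RPKM). By member, 5 of the 8 tested were higher and 2 lower in brown cells (26.9% and 24.7% of all genes), with a median of 0.84. The part of other cell types in the depot differences was not tested. In bulk RNA, fewer cells of a type and less RNA per cell cannot be told apart.

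Under Fgf8b, brown and white precursors differed in more genes than their controls did. Of the 15220 genes tested, 7859 (51.6%) were called under Fgf8b, 4099 (26.9%) higher and 3760 (24.7%) lower in brown cells. Under control, 5167 genes (33.9%) were called, 2748 (18.1%) higher and 2419 (15.9%) lower. Brown control library 15 stood apart from its group, with median differences of 0.168 to 0.175 from the other 3, and without it 5300 genes were called under control. The Fgf8b count was not computed without that library. Most differences were small: 272 genes (1.79%) were called and at least 2-fold higher in brown cells under Fgf8b, and 384 (2.52%) at least 2-fold lower. These 2 counts depended on the processing, running from 128 to 452 and from 226 to 578 over other settings. The median size of the difference over all genes was 0.206 under Fgf8b and 0.138 under control on the log2 scale, with the median signed difference at 0.005 in both.

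The depot difference itself was changed by the treatment in 5313 genes (34.9%) in the test of the Fgf8b difference minus the control difference, 2604 (17.1%) shifted towards brown and 2709 (17.8%) towards white. A total of 3384 genes were called between depots in both conditions, 2701 in the same direction and 683 (4.49% of those tested) in opposite directions. Among the patterning lists, the share of members whose depot difference was changed lay near that 34.9%, with 32.4% of the brown lineage regulators, 37.5% of the Hox genes and 31.8% of the hindlimb and ventral genes. It was 85.4% among targets of FGF and ERK signalling, 86.7% among interferon-stimulated genes, 80.0% among cholesterol synthesis genes and 83.3% among stress response genes. Several other lists were high too, with 83.3% of the FGF receptors and co-receptors, 82.8% of the preadipocyte markers and 76.9% of the complement genes. The nuclear respiratory chain genes stood at 15%. The lists were chosen with earlier results of these data known, so these shares are descriptions and no independent evidence.

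**Figure D1:**
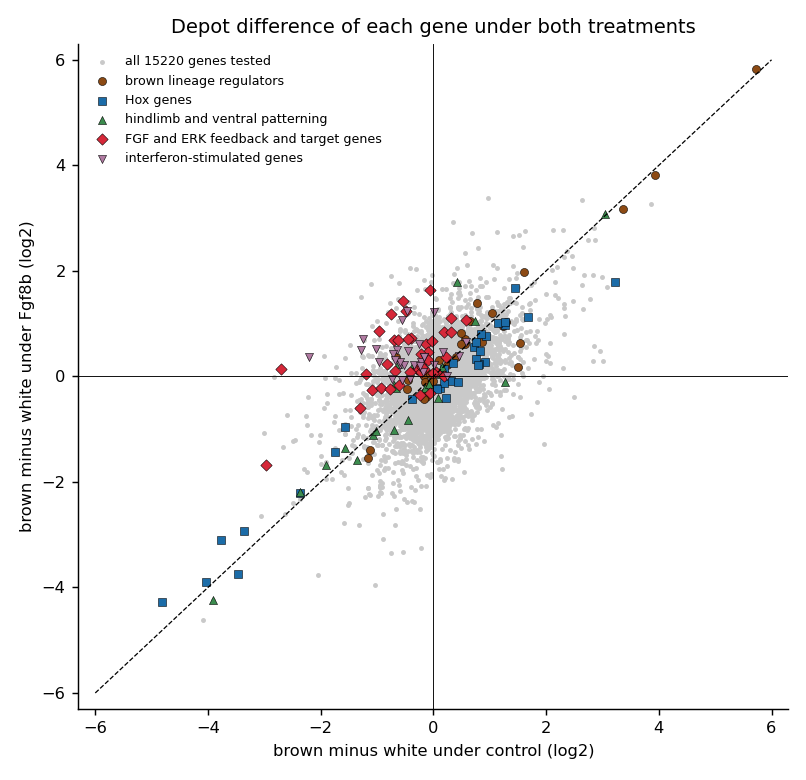
Depot difference (brown minus white, log2) under control on the x axis and under Fgf8b on the y axis for 15220 genes in grey, with the members of 5 gene lists in colour and a dashed line where both are equal. Hoxc10 and Zic1 sit near the line at both ends, while Angptl4 has a difference of -1.29 under control and 1.50 under Fgf8b.

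Most brown lineage regulators called under Fgf8b had the same call in the controls. Of 34 brown lineage regulators tested, 17 were higher and 7 lower in brown cells under Fgf8b (26.9% and 24.7% of all genes). Under control 17 were higher and 9 lower (18.1% and 15.9% of all genes). The median log2 difference was 0.34 under Fgf8b and 0.32 under control. Of the 34, 16 were higher and 6 lower in both conditions, and 0 were called in opposite directions (4.49% of all genes). The depot difference shifted towards brown in 5 and towards white in 6 (background 17.1% and 17.8%). Zic1, a zinc finger factor of the paraxial mesoderm, read 0.103, 0.188, 0.267 and 0.0924 RPKM in the white libraries and 12.9, 12.6, 13.8 and 11.4 RPKM in the brown ones. Every brown library lay far above every white one, with a log2 difference of 5.82 ± 0.182 SE (adjusted p = 2.06e-14) and 5.72 under control. Behind these levels are 7 to 20 reads in white and 646 to 766 reads in brown libraries.

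Other factors of dorsal mesoderm and brown fat were higher in brown cells by smaller steps. Ebf2, a factor that opens brown fat genes in precursors, read 6.08, 6.41, 6.34 and 6.2 RPKM in white and 9.66, 9.19, 10.1 and 9.3 RPKM in brown libraries (log2 difference 0.60 ± 0.049 SE, adjusted p = 9.51e-09). Lhx8, a LIM homeobox gene used as a brown fat marker, rose from 4.37 RPKM in white to 10.2 RPKM in brown cells (1.21). The groups did not overlap for either gene. Six2, a homeobox gene, read 0.163, 0.149, 0.189 and 0.176 RPKM in white against 3.11, 2.9, 3.54 and 3.04 RPKM in brown libraries, a log2 difference of 3.17 ± 0.110. The somite factors Pax3 (0.72) and Meox2 (0.66) were higher in brown cells too, as was Gata6 (0.60).

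Several members of the list of brown lineage regulators were higher in the white cells instead. Prdm16, the coregulator that directs brown adipocyte fate, read 1.69, 1.86, 1.9 and 1.72 RPKM in white and 1.37, 1.46, 1.54 and 1.36 RPKM in brown libraries, a log2 difference of -0.30 ± 0.072 (adjusted p = 0.0017). Tbx15, a T-box factor of subcutaneous and brown fat, read 45.3 ± 0.45 RPKM in white and 34 ± 1.18 RPKM in brown cells (SD, n = 4), with a depot difference of -0.43 under Fgf8b and -0.17 under control. Irx1, an Iroquois homeobox gene, read 15.7, 15, 14.4 and 14.4 RPKM in white and 5.33, 5.34, 5.25 and 4.06 RPKM in brown libraries, with differences of -1.55 and -1.15. The brown libraries lay below all white ones for each of these 3 genes, and the change in the depot difference was called for Tbx15 (-0.26) and Irx1 (-0.40) but not for Prdm16 (adjusted p = 0.258).

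**Figure D2:**
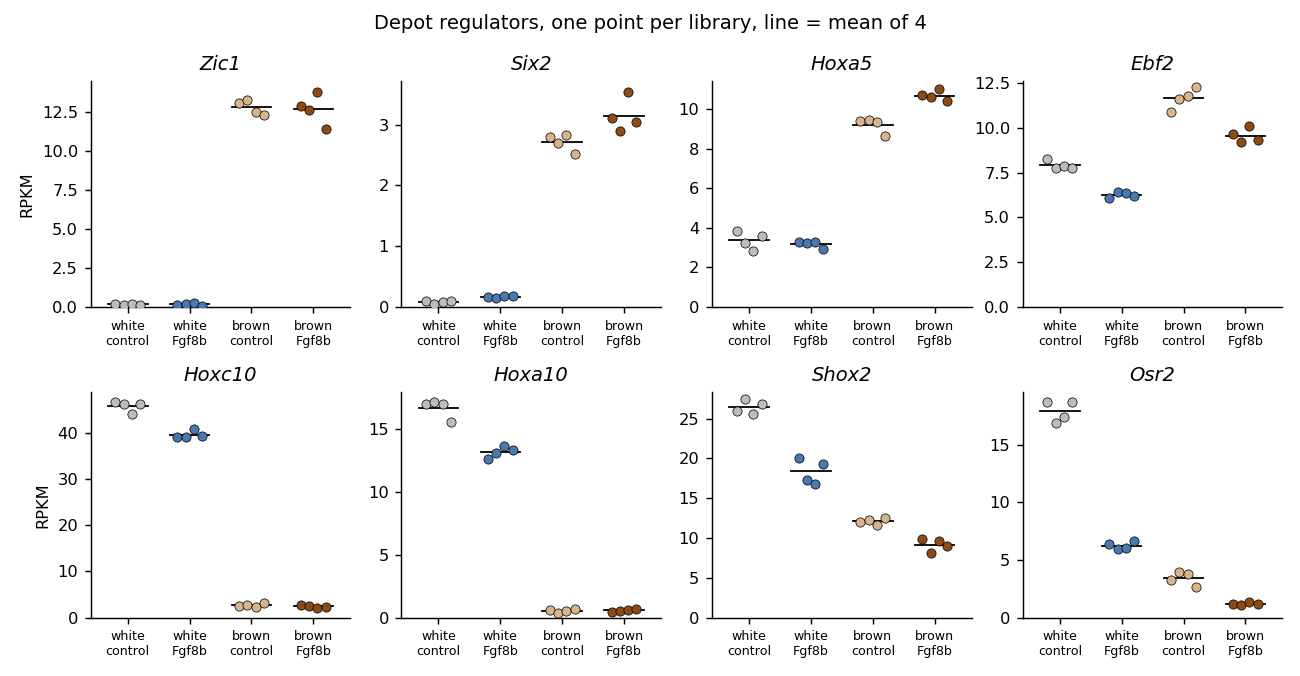
RPKM on a linear axis for 8 patterning genes in the 4 groups, with 1 point per library and a line at the mean of 4 libraries. Zic1, Six2, Hoxa5 and Ebf2 are higher in brown, and Hoxc10, Hoxa10, Shox2 and Osr2 in white libraries, in both conditions.

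The Hox clusters, whose paralogue number follows the position along the body axis, split by number. Of 32 Hox genes tested, 15 were higher and 12 lower in brown cells under Fgf8b (background 26.9% and 24.7%), and all 15 of the higher and 9 of the lower ones had the same call under control. Hoxa5, an anterior member, read 3.3, 3.24, 3.26 and 2.94 RPKM in white and 10.7, 10.6, 11 and 10.4 RPKM in brown libraries, a log2 difference of 1.68 (adjusted p = 1.37e-10). Hoxc4 and Hoxc5 were higher by 1.01 and 1.03. All brown libraries were above all white ones for these 3 genes.

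Hoxc10, a caudal gene that marks subcutaneous fat of the lower body, read 39.1, 39.1, 40.7 and 39.2 RPKM in white and 2.84, 2.6, 2.18 and 2.38 RPKM in brown libraries, a log2 difference of -3.91 ± 0.083 (adjusted p = 4.88e-16) beside -4.03 under control. Hoxa10 read 12.6, 13.1, 13.6 and 13.3 RPKM in white and 0.463, 0.553, 0.634 and 0.725 RPKM in brown libraries, a difference of -4.28. White cells were high and brown cells low for both, with no overlap. Hoxa11 read 2.2, 2.36, 2.35 and 2.81 RPKM in white libraries and was listed at 0 in 2 of the 4 brown ones, where 0 to 2 reads stand behind it. Hoxa9 (-3.10), Hoxc11 (-2.94), Hoxc12 (-2.22) and Hoxc13 (-1.44) were lower in brown cells as well, and Hoxc9 and Hoxc8 less so at -0.96 and -0.43.

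Within the Hox genes, the depot difference shifted towards white in 10 members and towards brown in 2 (17.8% and 17.1% of all genes). Hoxa2 read 1.13, 0.873, 1.09 and 1.29 RPKM in white and 3.72, 4.38, 3.91 and 4.37 RPKM in brown libraries under Fgf8b, a difference of 1.80, while the control means of 0.431 and 4.95 RPKM gave 3.22. The difference between the differences was -1.42 (adjusted p = 3.86e-07). Hoxb2, Hoxb8 and Hoxa7 likewise had smaller depot differences under Fgf8b (0.24, 0.22 and 0.27) than under control (0.80, 0.79 and 0.92). Hoxb9 was the 1 Hox gene called in opposite directions, at -0.09 under Fgf8b (adjusted p = 0.0338) and 0.30 under control. The Fgf8b call of Hoxb9 was lost without any one of white libraries 2, 4 and 6 or brown libraries 14 and 16 (adjusted p = 0.0601 to 0.102) and with median-of-ratios scaling (adjusted p = 0.0583), and that of Hoxb8 without white library 4 or 6 or brown library 14 (adjusted p = 0.0568 to 0.0721). With RefSeq entries alone the Hoxb8 difference was 0.15 (adjusted p = 0.0533) and that of Hoxa7 0.21 (adjusted p = 0.0583), and with the highest entry per gene Hoxb8 stood at 0.13 (adjusted p = 0.124). The groups overlapped for Hoxb8 under Fgf8b but not for Hoxb2, Hoxa7 or Hoxb9.

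**Figure D3:**
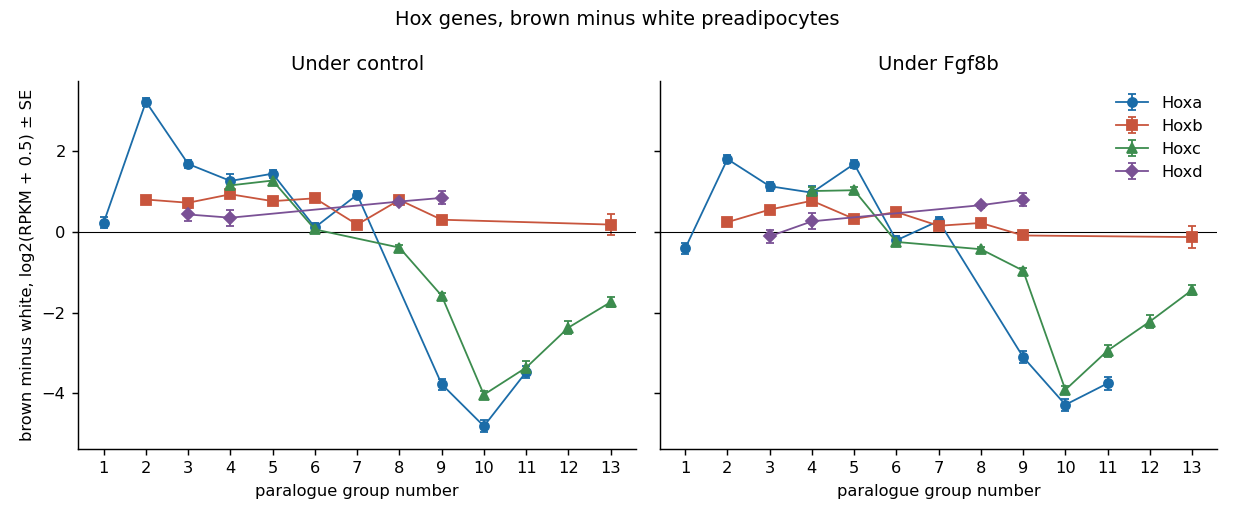
Depot difference (brown minus white, log2, with SE bars) of Hox genes by paralogue number from 1 to 13, coloured by cluster, under control and under Fgf8b. Most genes numbered 2 to 8 lie above 0, and the tested genes numbered 10 to 12 lie below it in both panels.

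Of 22 genes of hindlimb and ventral patterning tested, 6 were higher and 12 lower in brown cells (26.9% and 24.7% of all genes), with a median of -0.22, beside -0.54 under control. Pitx1, the homeobox gene that specifies the hindlimb, read 3.7, 2.89, 3 and 3.31 RPKM in white libraries and was listed at 0 in every brown library of both conditions. The short stature homeobox gene Shox2 read 20.1, 17.3, 16.8 and 19.3 RPKM in white and 9.87, 8.07, 9.66 and 9.05 RPKM in brown libraries (-1.03). The odd-skipped related gene Osr2 was likewise lower in every brown library (log2 difference -2.19). Twist2, a basic helix-loop-helix factor of mesenchyme, was called in opposite directions, with a depot difference of 0.23 under Fgf8b and -0.63 under control, as was the homeobox gene Emx2 at 0.17 and -0.38. The Fgf8b call of Emx2 was lost under 8 alternatives, among them leaving out white library 2, 4 or 6 or brown library 10 or 12 (adjusted p = 0.051 to 0.108).

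Thermogenic genes were called in both directions: 9 of 24 tested were higher and 7 lower in brown cells under Fgf8b, not far from the 26.9% and 24.7% of all genes, with a median of 0.16. Ucp1 itself was higher in the white cells. It read 6.95, 5.45, 6.77 and 5.84 RPKM in white and 4.18, 4.08, 4.58 and 4.97 RPKM in brown libraries, so that every brown library lay below every white one. The log2 difference was -0.46 ± 0.116 SE (adjusted p = 0.00262), whereas the control means of 2.31 and 2.41 RPKM did not pass the test (0.05, adjusted p = 0.787). The change of -0.51 between conditions was called (adjusted p = 0.021). Cox7a1, a cytochrome oxidase subunit of heart, muscle and brown fat, read 8.78, 6.01, 7.47 and 5.58 RPKM in white and 3.07, 2.36, 2.62 and 2.42 RPKM in brown libraries, a difference of -1.31 ± 0.229.

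Dio2, the deiodinase that activates thyroid hormone in brown fat, was the member with the largest difference among the thermogenic genes. It read 0.109, 0.144, 0.128 and 0.138 RPKM in the white libraries and 2.49, 2.94, 3.3 and 3.11 RPKM in the brown libraries, with no overlap (log2 difference 3.39 ± 0.142, adjusted p = 1.04e-12). Under control its means were 0.0314 and 0.227 RPKM and its difference 0.97, so the depot difference was larger by 2.41 with Fgf8b (adjusted p = 5.17e-08). Ppargc1a, the coactivator of mitochondrial biogenesis, stayed under 0.2 RPKM in all 8 libraries, with 0 to 6 reads behind each white and 6 to 10 behind each brown value. The sum of its entries was called higher in brown cells (1.06 ± 0.238, adjusted p = 0.00112). The levels of the 1 entry given here do not account for a difference of that size, and the other entries are not shown. Fabp3, a fatty acid binding protein, was higher in brown cells (0.88) and the thioesterase Acot2 lower (-0.94). Of 40 nuclear genes of the respiratory chain, 9 were higher and 2 lower (26.9% and 24.7% of all genes), with a median of 0.03.

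Among 31 adipogenic regulators and lipid genes, 12 were higher and 5 lower in brown cells, beside 26.9% and 24.7% of all genes. Angptl4, a secreted inhibitor of lipoprotein lipase, read 48.2, 56.5, 59.1 and 63 RPKM in white and 155.8, 160.9, 161.3 and 165.3 RPKM in brown libraries. The brown libraries stood well above the white ones, with a log2 difference of 1.50 ± 0.080 (adjusted p = 2.82e-11). The control means of 5.57 RPKM in white and 2.35 RPKM in brown cells gave -1.29, and the change of 2.79 was among the largest in the data (adjusted p = 7.72e-12). Lpl, lipoprotein lipase itself, had a control difference of -1.30 that was absent from the call under Fgf8b (-0.06 ± 0.045, adjusted p = 0.269), at 20.9, 20, 19.8 and 18.1 RPKM in white and 19, 19.1, 18.5 and 18.6 RPKM in brown libraries.

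Pparg, the master regulator of adipogenesis, read 2.11, 2.43, 1.99 and 1.99 RPKM in white and 2.47, 2.66, 2.56 and 3.08 RPKM in brown libraries. The groups overlapped, and the difference of 0.29 ± 0.092 was called at an adjusted p of 0.013 but not without brown library 16 (0.23, adjusted p = 0.052). The fatty acid binding protein Fabp4 (5.82 ± 0.547 RPKM in white, 12.1 ± 1.43 RPKM in brown, SD, n = 4) was higher in brown cells by 1.02, and Apoe, an apolipoprotein, by 1.12. Klf15, a Krüppel-like factor of late adipogenesis, was higher by 1.18 under Fgf8b and did not pass under control (-0.46, adjusted p = 0.056).

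Of the 29 preadipocyte markers, 8 were higher and 12 lower in brown cells, where all genes had 26.9% and 24.7%. Ly6a, which encodes the stem cell antigen Sca-1, read 443.9, 381.2, 426.9 and 317.1 RPKM in white and 155.9, 142.8, 140.3 and 138.8 RPKM in brown libraries (-1.43 ± 0.078). Pi16, a marker of interstitial progenitors, stood at 1.57 ± 0.13 against 0.268 ± 0.113 RPKM (SD, n = 4), a difference of -2.16 beside -0.33 under control (adjusted p = 0.0719). Eng, the co-receptor endoglin, was higher in brown cells by 1.12 with no overlap.

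The most abundant receptor for the factor was not called between the depots. Fgfr1, the main FGF receptor of mesenchymal cells, read 73.4, 77.9, 76.6 and 75.4 RPKM in white and 78.6, 76.6, 79.7 and 75.1 RPKM in brown libraries. The groups overlapped and the difference of 0.03 ± 0.030 was not called (adjusted p = 0.458), although under control Fgfr1 was lower in brown cells (-0.34). Fgfr2, at a much lower level, was higher in brown cells by 0.66 under Fgf8b and lower at -0.37 under control. Sdc4, a heparan sulfate co-receptor, read 40.2, 41.6, 40 and 40.3 RPKM in white and 62.4, 67.8, 64.8 and 68.5 RPKM in brown libraries (0.72). Of 12 receptors and co-receptors tested, 4 were higher and 5 lower, and of 10 FGF ligands 5 were higher and 1 lower (26.9% and 24.7% of all genes). The ligands Fgf1 (0.46), Fgf7 (0.18) and Fgf10 (0.31) were higher in brown cells, and Fgf21, an endocrine ligand, was lower at -2.18. Fgf21 read 1.58, 1.22, 1.36 and 1.5 RPKM in white and 0, 0.21, 0.145 and 0.144 RPKM in brown libraries.

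Targets and feedback genes of FGF and ERK signalling, a list chosen with earlier results of these data known, shifted towards brown cells under Fgf8b. Of the 41 genes, all tested, 21 were higher and 7 lower in brown cells (26.9% and 24.7% of all genes). Under control 5 were higher and 26 lower (18.1% and 15.9% of all genes). The median was 0.24 under Fgf8b and -0.27 under control. The depot difference was called as shifted towards brown in 35 and towards white in 0 of the 41, against a background of 17.1% and 17.8%. At an unadjusted limma p under 0.05 these counts were 36 and 0. In 11 genes the depots were called in opposite directions, lower in brown under control and higher in brown under Fgf8b. Of all genes, 4.49% were called in opposite directions of either kind. Egr1, an immediate early zinc finger factor, read 10.6, 11.7, 12.6 and 12.7 RPKM in white and 32.3, 33.1, 31.8 and 30.4 RPKM in brown libraries. All brown libraries exceeded all white ones, with a log2 difference of 1.42 ± 0.052 (adjusted p = 1.49e-13), and the control difference was -0.54. The control means of Egr1 were 27.8 RPKM in white and 19 RPKM in brown cells, against 11.9 and 31.9 RPKM under Fgf8b. Its mean was thus lower with Fgf8b in white and higher in brown cells.

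Among feedback genes of the list, of which all but Dusp4 were named after their values were seen, Dusp4, a nuclear phosphatase of ERK, read 26.6, 30.5, 30.9 and 30.6 RPKM in white and 65.8, 71.6, 70.4 and 69.8 RPKM in brown libraries. These groups did not overlap, with a log2 difference of 1.24 ± 0.050 (adjusted p = 6.20e-13), a control difference of -0.49 and a change of 1.73. Dusp5 (1.19), Dusp6 (0.62) and the Sprouty gene Spry4 (0.73) were higher in brown cells as well. Spry2, another Sprouty gene, and the ETS factor Etv5 stayed lower in brown cells under Fgf8b at -0.25 and -0.24, though less so than under control (-1.10 and -0.76, with changes of 0.85 and 0.52).

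Il11, a cytokine of the interleukin 6 family in the same list, read 3.54, 3.34, 4.14 and 3.98 RPKM in white and 10.8, 12.9, 11.5 and 13.4 RPKM in brown libraries (1.63 ± 0.172). Spp1, which encodes the matrix cytokine osteopontin, read 8145.8, 8725.2, 8680.4 and 8485.3 RPKM in white and 5448.6, 5449.6, 5702.7 and 5805.2 RPKM in brown libraries. It was lower in brown cells in both conditions, at -0.61 under Fgf8b and -1.31 under control. Mmp3, the stromelysin protease, read 195.4 ± 16 RPKM in white and 60.4 ± 2.31 RPKM in brown cells (SD, n = 4) and differed by -1.69 and -2.96. For Il1rl1, the receptor of interleukin 33, a control difference of -2.70 was followed by overlapping values of 225.3, 251.9, 269.8 and 258.6 RPKM in white and 261.8, 276.9, 263.3 and 277.6 RPKM in brown libraries under Fgf8b (0.15 ± 0.062, adjusted p = 0.0575). It was called higher in brown cells without white library 6 (adjusted p = 0.0373), with median-of-ratios scaling (0.049) and in the 8 Fgf8b libraries alone (0.0173).

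**Figure D4:**
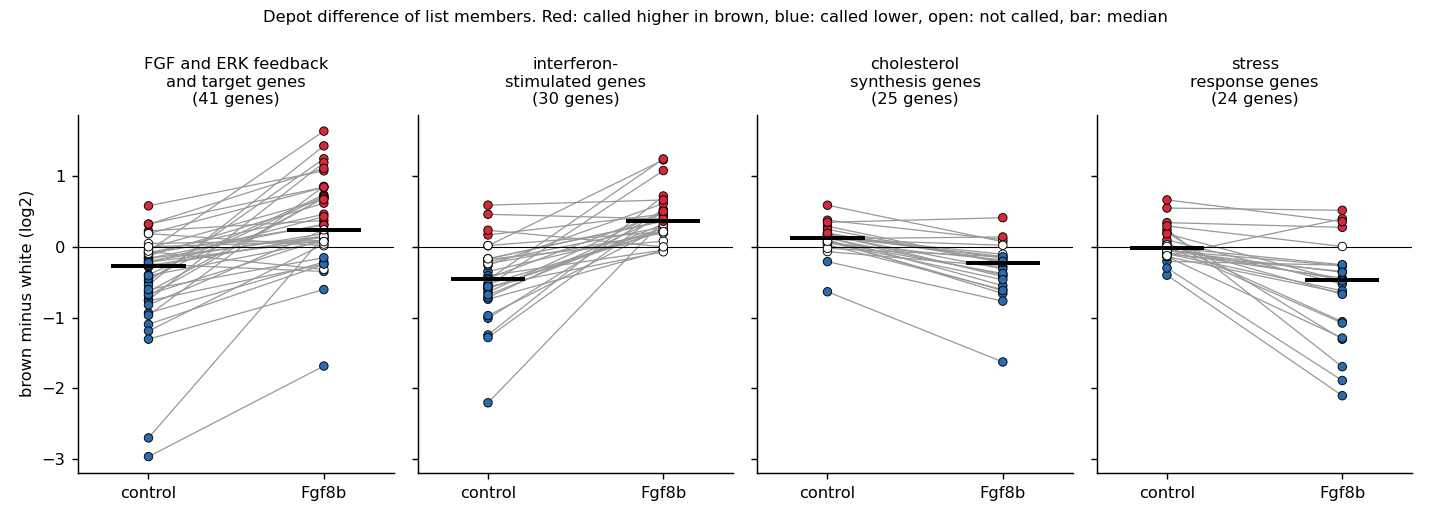
Depot difference (brown minus white, log2) of each member of 4 lists under control and under Fgf8b, joined by a line, with red for members called higher and blue for members called lower in brown cells, open points for members not called and a bar at the median. The FGF and ERK list and the interferon list move upwards, and the cholesterol and stress lists move downwards.

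Prostaglandin genes held 9 higher and 3 lower members of 15 under Fgf8b, beside 3 and 6 under control (all genes 26.9% and 24.7%, and 18.1% and 15.9%). Ptgs2, the inducible cyclooxygenase, read 24.1, 25.5, 27.9 and 27.2 RPKM in white and 33.4, 35.1, 35 and 36.7 RPKM in brown libraries. The brown libraries were all higher, by a log2 difference of 0.41 ± 0.090 (adjusted p = 0.000845), against -1.16 under control with means of 4.34 and 1.97 RPKM. Ptger4, a receptor of prostaglandin E2, was higher in brown cells by 0.75 with a control difference of -0.01 (adjusted p = 0.913). Ptgfr, the receptor of prostaglandin F2 alpha, and Pla2g4a, the phospholipase that releases arachidonic acid, were lower in brown cells at -0.50 and -0.47.

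Of 54 matrix genes tested, 28 were lower and 20 higher in brown cells, against 24.7% and 26.9% of all genes, with a median of -0.16. Lum, the small leucine-rich proteoglycan lumican, read 69.4, 77.8, 74.5 and 77.1 RPKM in white and 4.52, 4.32, 5.84 and 4.13 RPKM in brown libraries. The white libraries stood far above the brown, with a log2 difference of -3.96 ± 0.126 (adjusted p = 2.47e-14) that was -1.04 under control. Control means were 14.4 RPKM in white and 7.14 RPKM in brown cells. Its relative Dcn, decorin, read 336.2, 367.7, 358.2 and 358.5 RPKM in white and 72.5, 65.3, 82.9 and 77.3 RPKM in brown libraries (-2.25 ± 0.065). Postn, the matricellular protein periostin, differed by -2.02 and Mfap4, a microfibril protein, by -2.28.

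Of the next 7 genes, all but Col6a2 were named after their values were seen, and they stand for no group. The fibrillar chains Col1a1 (-0.85) and Col3a1 (-1.16) and the microfibrillar chain Col6a2 (-1.07) were lower in brown cells. The collagen IV chains Col4a1 (0.47) and Col4a2 (0.48) and the nidogens Nid1 (0.52) and Nid2 (0.75), components of basement membrane, were higher. No overlap between depots was seen for any of these 7 genes. Col14a1, a fibril-associated collagen, was low under Fgf8b, at 0.294, 0.398, 0.347 and 0.365 RPKM in white and 1.84, 1.75, 1.61 and 1.75 RPKM in brown libraries. It was called in opposite directions, 2.05 under Fgf8b and -0.41 under control, where its means were 31.6 and 24.3 RPKM.

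Of 27 matrix proteases and inhibitors tested, 11 were higher and 12 lower (26.9% and 24.7% of all genes). Timp3, a tissue inhibitor of metalloproteinases, read 27.8, 29, 27.6 and 26.7 RPKM in white and 61, 64.9, 62.8 and 65 RPKM in brown libraries (1.20 ± 0.032). The metalloproteinases Mmp11 (-1.10) and Adamts15 (-1.65) were lower in brown cells in both conditions (-1.04 and -1.99 under control). Of 20 smooth muscle and contractile genes, 7 were higher and 6 lower under Fgf8b with a median of 0.08, near the shares of all genes, beside 13 and 2 under control (18.1% and 15.9% of all genes) with a median of 0.64. Rgs5, a pericyte regulator of G protein signalling, read 8.85, 9.13, 8.73 and 8.86 RPKM in white and 2.25, 2.42, 2.88 and 2.94 RPKM in brown libraries. It was called in opposite directions (-1.75 under Fgf8b, 1.22 under control), with low control means of 0.383 RPKM in white and 0.793 RPKM in brown cells. The gamma smooth muscle actin Actg2 (1.09) and the proteoglycan Cspg4 (0.85) were higher in brown cells.

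Interferon-stimulated genes, the antiviral set that follows interferon receptors, shifted towards brown cells. Of 30 tested, 16 were higher and 0 lower in brown cells under Fgf8b (26.9% and 24.7% of all genes). Under control 4 were higher and 20 lower (18.1% and 15.9% of all genes). The median was 0.36 under Fgf8b and -0.46 under control. The depot difference shifted towards brown in 26 and towards white in 0, where 17.1% and 17.8% of all genes did. At an unadjusted limma p under 0.05, 17 members were higher and 0 lower under Fgf8b, and 26 shifted towards brown and 1 towards white. The white Fgf8b library 8 was the lowest of its group in 27 of the 30 genes, and without it 14 were called higher. Leaving out white library 6 instead gave 20. The interferon-stimulated response element, searched on both strands as GAAA, any 2 bases and GAAA again, was present in the 250 bases before the start of 12 of the 24 members with a RefSeq promoter (GRCm38.p6), 6 of 12 called higher and 6 of 12 not called. Of all 27025 genes with a promoter, 3.46% hold it in at least 1 window, and of all 32851 promoter windows of that length, 2.98% do. Examples are shown with the element in capitals, Isg15 (chr4:156200819-156201068), Rsad2 (chr12:26456453-26456702) and Ifit1 (chr19:34640639-34640888).
Isg15: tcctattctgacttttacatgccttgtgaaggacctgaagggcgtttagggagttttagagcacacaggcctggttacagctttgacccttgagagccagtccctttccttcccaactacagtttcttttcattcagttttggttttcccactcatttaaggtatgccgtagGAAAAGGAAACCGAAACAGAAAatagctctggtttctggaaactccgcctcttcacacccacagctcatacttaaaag
Rsad2: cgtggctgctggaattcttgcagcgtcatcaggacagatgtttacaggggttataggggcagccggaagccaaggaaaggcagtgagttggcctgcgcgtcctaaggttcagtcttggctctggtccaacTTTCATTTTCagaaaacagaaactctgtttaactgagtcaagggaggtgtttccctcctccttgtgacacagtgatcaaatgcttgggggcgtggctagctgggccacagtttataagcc
Ifit1: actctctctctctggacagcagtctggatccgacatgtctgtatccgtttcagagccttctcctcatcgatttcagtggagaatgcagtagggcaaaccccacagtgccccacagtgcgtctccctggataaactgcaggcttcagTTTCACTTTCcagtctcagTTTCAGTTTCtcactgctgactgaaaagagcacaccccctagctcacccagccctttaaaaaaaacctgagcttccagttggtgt
These matches are descriptions of the sequence and not measured binding sites.

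Ifi44, an interferon-induced protein, read 13.6, 10.6, 13.6 and 7.3 RPKM in white and 31.9, 23, 26.9 and 21.5 RPKM in brown libraries. Its groups did not overlap, with a log2 difference of 1.24 ± 0.160 (adjusted p = 3.48e-06) and -0.47 under control. The control means of Ifi44 were 37.2 RPKM in white and 27.5 RPKM in brown cells, against 11.3 and 25.8 RPKM under Fgf8b. Rsad2, the antiviral enzyme viperin, read 5.78, 6.38, 7.89 and 5.12 RPKM in white and 14.3, 8.94, 10.4 and 9.05 RPKM in brown libraries (0.72 ± 0.141, adjusted p = 0.000338), with -1.25 under control. The oligoadenylate synthetases Oas1a (1.23) and Oas2 (1.08) and the RNA-binding Ifit1 (0.50) were higher in brown cells. Isg15, the ubiquitin-like modifier, overlapped between groups at 526.5, 457.2, 516.5 and 335.4 RPKM in white and 641.0, 500.5, 518.1 and 467.7 RPKM in brown libraries and was not called (0.22 ± 0.123, adjusted p = 0.138). Mx1, a dynamin-like GTPase, had a control difference of -2.20 and 0.37 ± 0.205 under Fgf8b (adjusted p = 0.146).

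Cytokines and chemokines were higher in brown cells in 13 and lower in 5 of 26 genes tested (26.9% and 24.7% of all genes), with a median of 0.25. Il1rn, the interleukin 1 receptor antagonist, read 0.715, 1.02, 0.742 and 0.719 RPKM in white and 3.11, 3.77, 2.87 and 3.76 RPKM in brown libraries (2.11 ± 0.101). Every brown library was above every white one. Ccl2, the monocyte chemoattractant, read 102.1 ± 7.89 RPKM in white and 235.1 ± 3.71 RPKM in brown cells (SD, n = 4) and was called in opposite directions (1.20 under Fgf8b, -0.46 under control). Ccl8, another monocyte chemokine, was lower in brown cells at -1.82 and -2.25. Il33, an alarmin, read 20.1, 24.9, 25.8 and 25.1 RPKM in white and 21.8, 18.1, 22 and 19.4 RPKM in brown libraries, an overlap (-0.24 ± 0.151, adjusted p = 0.197) in place of the control difference of 2.05. A fit of the 8 Fgf8b libraries alone called Il33 lower in brown cells (adjusted p = 0.0349). Complement genes were lower in brown cells in 9 and higher in 2 of 13 (24.7% and 26.9% of all genes), among the lower ones C1s, a protease of the classical pathway, at -1.30, and Cd55, the decay accelerating factor, at -0.65.

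Genes of the integrated stress response, in which ATF4 and related factors raise amino acid synthesis and transport, were lower in brown cells under Fgf8b. Of 24 stress response genes, all tested, 19 were lower and 4 higher (24.7% and 26.9% of all genes). Under control 6 were lower and 6 higher (15.9% and 18.1% of all genes). The median was -0.47 under Fgf8b and -0.02 under control. The depot difference shifted towards white in 19 and towards brown in 1, Hmox1 (heme oxygenase, 0.52), against 17.8% and 17.1% of all genes. The composite element bound by C/EBP and ATF factors was searched as TGATGNAA on both strands. It was present in the 250 bases before the start of 3.91% of all genes with a promoter (3.45% of all windows) and of 7 of the 22 members. These 7 are Asns, Atf3, Chac1, Herpud1, Nupr1, Slc7a11 and Vldlr. They make up 6 of 18 members called lower in brown cells, 1 of 3 called higher (Atf3) and 0 of 1 not called. The windows of Asns (chr6:7693210-7693459), Chac1 (chr2:119350992-119351241), Nupr1 (chr7:126625471-126625720), Slc7a11 (chr3:50443614-50443863) and Vldlr (chr19:27216770-27217019) are given because these 5 were at least 2-fold lower in brown cells, with the element in capitals and the first base of the match nearest the start at -23, -193, -110, -47 and -200.
Asns: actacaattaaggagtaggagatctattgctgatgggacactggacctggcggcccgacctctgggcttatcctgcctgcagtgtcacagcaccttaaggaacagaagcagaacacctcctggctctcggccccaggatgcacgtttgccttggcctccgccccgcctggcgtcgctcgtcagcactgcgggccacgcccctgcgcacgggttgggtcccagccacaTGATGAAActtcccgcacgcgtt
Chac1: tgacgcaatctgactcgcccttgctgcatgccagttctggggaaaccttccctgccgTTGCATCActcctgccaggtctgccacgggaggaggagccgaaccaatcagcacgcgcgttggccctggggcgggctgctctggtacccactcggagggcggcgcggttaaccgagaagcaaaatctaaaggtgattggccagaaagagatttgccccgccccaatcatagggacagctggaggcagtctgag
Nupr1: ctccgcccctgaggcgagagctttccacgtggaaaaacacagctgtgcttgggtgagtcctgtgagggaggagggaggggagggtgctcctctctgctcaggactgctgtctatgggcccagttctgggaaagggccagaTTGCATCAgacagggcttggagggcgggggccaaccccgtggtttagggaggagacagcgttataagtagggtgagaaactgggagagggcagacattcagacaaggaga
Slc7a11: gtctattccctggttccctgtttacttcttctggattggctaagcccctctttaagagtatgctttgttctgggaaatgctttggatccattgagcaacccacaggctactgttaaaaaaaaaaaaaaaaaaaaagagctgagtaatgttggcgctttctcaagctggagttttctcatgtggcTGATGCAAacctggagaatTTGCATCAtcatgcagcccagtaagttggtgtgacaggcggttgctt
Vldlr: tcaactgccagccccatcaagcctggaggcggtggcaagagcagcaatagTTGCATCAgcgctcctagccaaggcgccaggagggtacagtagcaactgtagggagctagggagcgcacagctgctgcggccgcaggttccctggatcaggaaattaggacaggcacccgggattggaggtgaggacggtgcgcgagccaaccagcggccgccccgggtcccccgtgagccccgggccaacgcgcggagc
A match describes the letters of the window alone.

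Trib3, a pseudokinase induced by ATF4, read 31.2, 26.9, 25.3 and 25.6 RPKM in white and 6.7, 6.28, 6.48 and 6.17 RPKM in brown libraries. The brown libraries were all lower, by a log2 difference of -2.10 ± 0.062 (adjusted p = 1.02e-14), against -0.40 under control with means of 57.9 and 43.8 RPKM. Chac1, a glutathione-degrading enzyme, read 20.3, 17.6, 17.2 and 18.5 RPKM in white and 6.05, 4.86, 5.33 and 6.07 RPKM in brown libraries (-1.69 ± 0.093), and its control difference of 0.24 was not called (adjusted p = 0.0519). Asns, asparagine synthetase, read 110.2, 103.5, 97.6 and 94.5 RPKM in white and 49.8, 49, 46.6 and 49 RPKM in brown libraries (-1.06 ± 0.050), with 0.05 under control (adjusted p = 0.455). No brown library reached a white one for any of the 3.

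Other members followed. The cystine transporter Slc7a11 (-1.31), the lipoprotein receptor Vldlr (-1.89), the stress coregulator Nupr1 (-1.29) and the mTORC1 inhibitor Ddit4 (-1.08) were lower in brown cells. Outside the list, the mitochondrial folate enzyme Aldh1l2 (-1.54) and the mitochondrial phosphoenolpyruvate carboxykinase Pck2 (-1.64) were among the genes with the smallest p and a control difference under 0.2 in size (-0.15 and -0.18). The 4 higher members were Atf3 (0.51), an activating transcription factor, the chaperone Hspa5 (0.27), Hmox1 (0.39) and the quinone reductase Nqo1 (0.35).

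Cholesterol synthesis genes were also lower in brown cells under Fgf8b. Of 25, all tested, 19 were lower and 2 higher (24.7% and 26.9% of all genes). Under control 13 were higher and 2 lower (18.1% and 15.9% of all genes). The median was -0.23 under Fgf8b and 0.12 under control. The depot difference shifted towards white in 20 and towards brown in 0 (17.8% and 17.1% of all genes), which an unadjusted limma p under 0.05 made 21 and 0. In opposite directions, 8 of the 25 were called (4.49% of all genes). Hmgcs1, the synthase at the entry of the pathway, read 98.2, 95.8, 96.5 and 98.6 RPKM in white and 60.8, 59.6, 63.9 and 62.4 RPKM in brown libraries (-0.66 ± 0.049, adjusted p = 2.56e-09), with 0.10 under control (adjusted p = 0.125). Its groups did not overlap. The thiolase Acat2 was lower at -0.62 and the sterol reductase Tm7sf2 at -0.77. The 2 higher members included the sterol isomerase Ebp at 0.14, whose groups overlapped and whose call was lost without white library 4 or 6 or brown library 10, 12 or 14 (adjusted p = 0.057 to 0.122), with upper-quartile scaling (0.073) and in limma without trend and robust moderation (0.0529). The sterol regulatory element, searched as TCACNCCAC, was found in 1 of 16 members with a promoter (Hmgcs1), in 1.22% of all such genes and in 1.05% of all windows. The AP-1 site TGANTCA was found in 5 of 28 FGF and ERK members, in 7.82% of all genes with a promoter and in 6.75% of all windows.

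Among growth factor pathways, BMP and TGF-beta genes had 20 higher and 14 lower members of 39, WNT genes 11 higher and 8 lower of 34, IGF system genes 6 higher and 13 lower of 26, and retinoic acid genes 4 higher and 7 lower of 18, where 26.9% and 24.7% of all genes were higher and lower. The WNT shares are near those of all genes. Tgfb2, a TGF-beta ligand, read 2.06, 2.25, 2.28 and 2.35 RPKM in white and 0.661, 0.716, 0.594 and 0.605 RPKM in brown libraries (-1.55 ± 0.068), against 0.24 under control. Bmper, a BMP-binding protein, was higher in brown cells by 1.71, and Tgfbi, a TGF-beta-induced matrix protein, lower at -1.34. The WNT antagonist Frzb was higher by 2.06 and Dkk2, another, lower at -1.81 in brown cells. Of the IGF system list, the imprinted non-coding RNA H19 read 321.2, 308.3, 292.5 and 292.2 RPKM in white and 75.7, 55, 69.9 and 57 RPKM in brown libraries (-2.23 ± 0.081), and Cdkn1c, a cyclin-dependent kinase inhibitor, Meg3, a non-coding RNA, and Grb10, an adaptor of the insulin receptor, differed by -2.64, -1.55 and -1.13. Crabp1, a carrier of retinoic acid, read 3992.0, 3856.6, 3895.4 and 3892.0 RPKM in white and 1254.7, 1093.9, 1180.3 and 1114.8 RPKM in brown libraries, a difference of -1.75 beside -2.29 under control.

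Proliferation genes were higher in brown cells in 19 and lower in 5 of 35 (26.9% and 24.7% of all genes), by small steps with a median of 0.12. Rrm2, a subunit of ribonucleotide reductase, read 56.5, 60.7, 61.1 and 63.4 RPKM in white and 83.2, 83.2, 82.8 and 83.5 RPKM in brown libraries (0.47 ± 0.043), and Ccne1, cyclin E1, was higher by 0.53. The nucleolar proteins Nolc1 (0.80) and Ddx21 (0.94) were higher in brown cells, with control differences of 0.05 and 0.16. Glycolysis genes were lower in 12 and higher in 2 of 22 (24.7% and 26.9% of all genes). Aldoc, an aldolase, read 5.83, 4.99, 5.52 and 5.16 RPKM in white and 1.21, 1.25, 1.41 and 0.96 RPKM in brown libraries (-2.10), and the lactate transporter Slc16a3 (-0.84) and the kinase Pdk1 (-0.85) were lower in both conditions (-0.97 and -0.82 under control).

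Ranked by the size of the difference alone, Esm1, a secreted proteoglycan, read 7.67, 7.97, 8.15 and 7.92 RPKM in white and 52.5, 54.2, 56.1 and 57.1 RPKM in brown libraries (2.76 ± 0.097), and its depot difference was larger by 1.14 than under control. Cp, the copper-carrying ferroxidase ceruloplasmin, differed by 2.38 in both conditions. Olr1, a scavenger receptor for oxidised lipoproteins, was higher by 1.66. The libraries of the 2 depots did not overlap for these 3 genes.

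Genes higher in white cells included Agtr2, an angiotensin receptor, at 93.2, 100.7, 102.3 and 100.5 RPKM in white and 7.76, 6.23, 7.52 and 7.29 RPKM in brown libraries (-3.76 ± 0.123). Rarres2, which encodes the adipokine chemerin, read 14.1, 11.7, 9.61 and 9.09 RPKM in white and 0.971, 1.03, 0.581 and 0.865 RPKM in brown libraries (-3.35, against -0.76 under control). The opioid precursor Penk (-2.60), the growth cone protein Gap43 (-2.33) and the kainate receptor partner Neto2 (-2.38) were lower in brown cells as well. For Penk and Gap43 the control differences were -2.63 and -2.37, and the change between conditions was not called (adjusted p = 0.913 and 0.815), whereas for Neto2 it was -1.91.

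Among genes called in opposite directions, Tac1, the precursor of substance P, read 1.94, 1.57, 2.02 and 1.98 RPKM in white and 5.56, 5.78, 6.82 and 8.03 RPKM in brown libraries (1.76 ± 0.235), against -1.11 under control. Entpd1, the ectonucleotidase CD39, read 4.05, 4.83, 4.88 and 5.31 RPKM in white and 1.71, 1.49, 1.52 and 1.56 RPKM in brown libraries (-1.50 ± 0.105), against 1.21 under control. Neither gene had overlapping groups. Akr1c18, a hydroxysteroid dehydrogenase, was higher in brown cells by 1.40 with -0.77 under control, and the protease inhibitor Serpinb1a was lower at -0.48 with 1.84 under control.

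**Figure D5:**
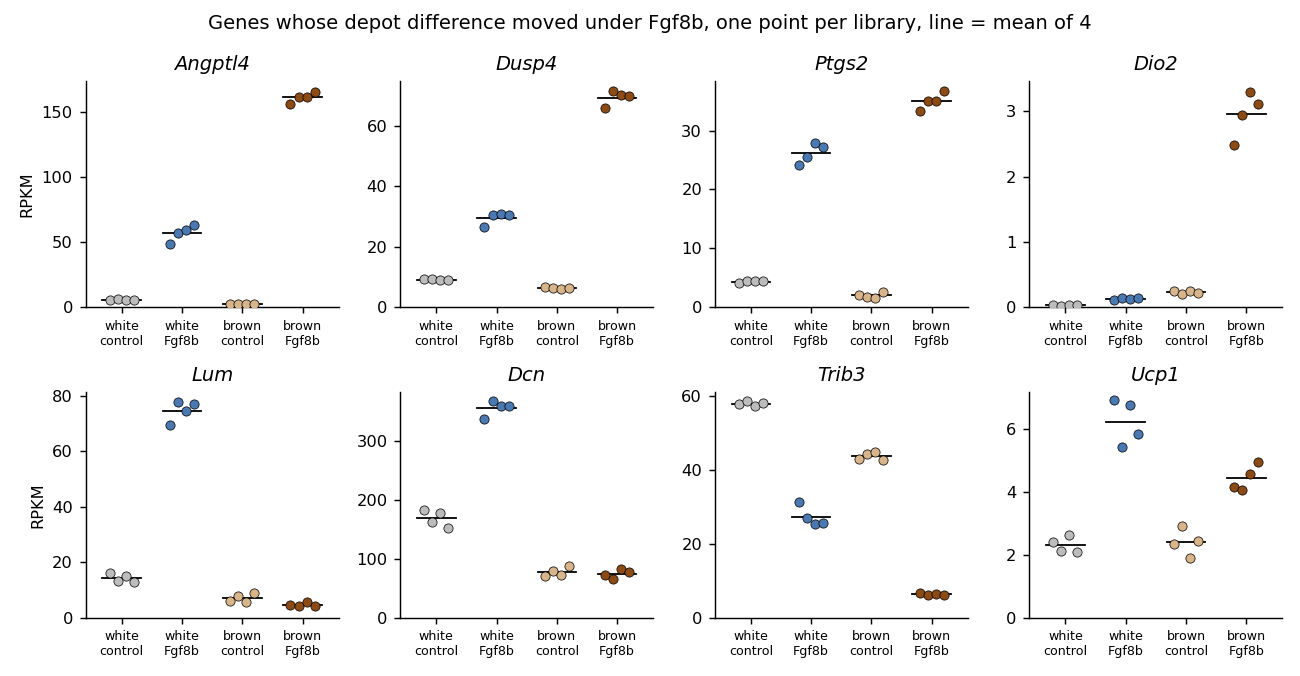
RPKM on linear axes for 8 genes in the 4 groups, with 1 point per library and a line at the mean of 4 libraries. Angptl4, Dusp4, Ptgs2 and Dio2 are highest in the brown Fgf8b libraries, Lum, Dcn and Ucp1 in the white Fgf8b libraries, and Trib3 is lowest in the brown Fgf8b libraries.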

How the data were processed

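The study deposited 1 table of 168326 transcript entries by 16 libraries. Its values are RPKM with decimal commas, as the authors deposited them. Total RNA went into TruSeq RNA libraries (kit v2), per the labels, and CASAVA and bcl2fastq are named per the submitters' processing notes. For the aligner, annotation, genome build and strand setting, the answer is not given in the sources used here. Overlapping and antisense genes are therefore uncertain. Entries without a symbol (23178, 13.8%) were left out, as were 808 entries of 299 repeated accessions, of which 145 differed among copies in the white columns and 0 in the brown columns.

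Entries were summed per symbol (29057 genes) for tests on log2(RPKM + 0.5), with at least 0.5 RPKM in 4 or more libraries required (15220 genes). Levels are from the RefSeq entry with the highest mean, or the highest entry where there is none. Limma 3.58.1 in R 4.3.3 (trend and robust moderation) was fitted to all 16 libraries in 4 groups, with Benjamini-Hochberg adjustment, for brown minus white under Fgf8b, under control, and the difference of both. The fit was tested on simulated data. Depth was recovered from 46002 Ensembl entries with known length, where 95.7 to 96.0% of values up to 50 reads were within 0.1 of whole reads. Single-library levels have only counting precision.

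Genes named are fixed examples, positional genes over 1 RPKM, the 4 largest differences of each list, the largest called differences, changes and reversals, and the smallest p with little control difference. Some genes that the rule takes are not reported here. Named outside that rule, after their values were seen, were Asns, Atf3, Ccl2, Col1a1, Col3a1, Col4a1, Col4a2, Ddit4, Dusp5, Dusp6, Ebp, Etv5, Herpud1, Hmox1, Hspa5, Ifit1, Isg15, Lpl, Nid1, Nid2, Nqo1, Postn, Sox10, Spry2, Spry4 and the cell markers. The members and lists were chosen with earlier results of these data known. Promoter windows are from RefSeq (GRCm38.p6). Alternatives covered pseudocount, filter, scaling, entry choice, limma settings and leaving out each library. Figures used Python 3.11.15 and matplotlib 3.10.9.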

Additional observations from a re-analysis of the deposited data

Results flagged for a closer look

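Of the 150 genes tested and named in the text, 104 had a depot difference that differed between Fgf8b and control by the test of the difference itself (limma, adjusted p below 0.05), against 34.9% of all genes tested. The genes were named partly by the size of that difference, so their number is no result. The values in parentheses are the depot difference under Fgf8b minus that under control on the log2 scale, positive towards brown. In the brown lineage regulators, Irx1 (-0.40), Meox2 (-0.21) and Tbx15 (-0.26) shifted towards white. Among the Hox genes, Hoxa9 (0.67) and Hoxc9 (0.61) shifted towards brown, and Hoxa2 (-1.42), Hoxa7 (-0.65), Hoxb2 (-0.56), Hoxb8 (-0.58) and Hoxb9 (-0.39) shifted towards white. The call for Hoxa9 was lost with RefSeq entries alone (0.22, adjusted p = 0.25) and with the highest entry per gene (0.43, adjusted p = 0.0729). In the hindlimb and ventral patterning genes, Emx2 (0.55) and Twist2 (0.86) shifted towards brown. Among the thermogenic genes, Dio2 (2.41) and Ppargc1a (1.10) shifted towards brown, and Acot2 (-0.62) and Ucp1 (-0.51) shifted towards white. For Ppargc1a few reads were counted, 0 to 6 in each white and 6 to 10 in each brown Fgf8b library. In the adipogenic regulators and lipid genes, Angptl4 (2.79), Apoe (0.86), Klf15 (1.64) and Lpl (1.23) shifted towards brown. Among the preadipocyte markers, Pdgfra (0.28) shifted towards brown, and Cd55 (-0.48), Ly6a (-0.71) and Pi16 (-1.83) shifted towards white. In the FGF receptors and co-receptors, Fgfr1 (0.37), Fgfr2 (1.03) and Sdc4 (0.44) shifted towards brown. Among the FGF ligands, Fgf10 (1.29) shifted towards brown, and Fgf21 (-1.23) shifted towards white. In the FGF and ERK feedback and target genes, Dusp4 (1.73), Dusp5 (1.94), Dusp6 (0.74), Egr1 (1.96), Etv5 (0.52), Il11 (1.69), Il1rl1 (2.85), Mmp3 (1.28), Spp1 (0.70), Spry2 (0.85) and Spry4 (1.13) shifted towards brown. Among the prostaglandin genes, Ptger4 (0.77) and Ptgs2 (1.57) shifted towards brown, and Ptgfr (-0.71) shifted towards white. In the matrix genes, Col14a1 (2.46), Nid1 (0.35) and Nid2 (0.70) shifted towards brown, and Col1a1 (-0.41), Col3a1 (-0.88), Col6a2 (-1.14), Dcn (-1.12), Lum (-2.92), Mfap4 (-1.30) and Postn (-1.11) shifted towards white. Among the matrix proteases and inhibitors, Timp3 (0.12) shifted towards brown. The call for Timp3 was lost under 17 alternatives, upper-quartile scaling and leaving out 1 library among them (adjusted p = 0.0526 to 0.108). In the smooth muscle and contractile genes, Rgs5 (-2.97) shifted towards white.

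Among the interferon-stimulated genes, Ifi44 (1.71), Ifit1 (1.14), Isg15 (0.58), Mx1 (2.57), Oas1a (1.21), Oas2 (1.63) and Rsad2 (1.96) shifted towards brown. In the cytokines and chemokines, Ccl2 (1.66) and Il1rn (1.50) shifted towards brown, and Il33 (-2.29) shifted towards white. Among the complement genes, C1s (-0.30) shifted towards white. In the BMP and TGF-beta genes, Bmper (0.85) shifted towards brown, and Tgfb2 (-1.79) and Tgfbi (-0.17) shifted towards white. The call for Tgfbi was lost without white control library 5, white Fgf8b library 4 or brown Fgf8b library 12 (adjusted p = 0.0504 to 0.0535). Among the WNT genes, Frzb (-0.42) shifted towards white. The call for Frzb was lost under 15 alternatives, with adjusted p from 0.0523 to 0.1. In the IGF system genes, Grb10 (-0.78), H19 (-1.09) and Meg3 (-0.69) shifted towards white. Among the retinoic acid genes, Crabp1 (0.54) shifted towards brown. In the proliferation genes, Ccne1 (0.33) and Rrm2 (0.40) shifted towards brown. Among the glycolysis genes, Aldoc (-1.18) shifted towards white. In the cholesterol synthesis genes, Acat2 (-0.70), Hmgcs1 (-0.76) and Tm7sf2 (-0.56) shifted towards white. Among the stress response genes, Hmox1 (0.52) shifted towards brown, and Asns (-1.11), Chac1 (-1.94), Ddit4 (-1.08), Herpud1 (-0.66), Nqo1 (-0.31), Nupr1 (-1.15), Slc7a11 (-1.51), Trib3 (-1.70) and Vldlr (-1.59) shifted towards white. In genes outside the lists, Akr1c18 (2.16), Ddx21 (0.77), Esm1 (1.14), Nolc1 (0.75), Olr1 (1.81) and Tac1 (2.87) shifted towards brown. Agtr2 (-1.72), Aldh1l2 (-1.38), C1qtnf3 (-2.89), Entpd1 (-2.71), Neto2 (-1.91), Pck2 (-1.46), Rarres2 (-2.60) and Serpinb1a (-2.32) shifted towards white.

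In 18 of 300 groups of 4 libraries, 1 library lay apart from the other 3 by more than the critical gap of Dixon's test at the 95% level, which chance alone passes in about 1 of 20 groups. In white Fgf8b library 2 these were Dusp4 (26.6 RPKM), Herpud1 (37 RPKM), Il33 (20.1 RPKM), Nid1 (274.4 RPKM), Pck2 (71.1 RPKM) and Slc16a3 (143.8 RPKM). In white Fgf8b library 4 these were Il1rn (1.02 RPKM), Pdk1 (33.7 RPKM), Sdc4 (41.6 RPKM) and Tac1 (1.57 RPKM). In white Fgf8b library 6 it was Hoxc10 (40.7 RPKM). In brown Fgf8b library 10 these were Hoxc12 (0.296 RPKM) and Vldlr (1.82 RPKM). In brown Fgf8b library 14 it was Hoxb2 (12 RPKM). In brown Fgf8b library 16 these were Akr1c18 (27.4 RPKM), Fgf10 (8.43 RPKM), Hoxb9 (40.5 RPKM) and Irx1 (4.06 RPKM).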

How the results depend on the processing

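Alternatives were another pseudocount, filter, scaling, choice of transcript entries or limma setting, or leaving out a single library. For the depot difference under Fgf8b, only Fgf8b libraries were left out. A reversal was counted only where a gene was called in the main fit or in the alternative. For the 150 genes tested and named, none of 2848 alternative values of the depot difference under Fgf8b and none of 3898 of its change from control reversed by that count. The side of the threshold changed in 34 of the former, for Ebp, Emx2, Hoxa7, Hoxb8, Hoxb9 and Pparg (calls lost) and C1qtnf3, Il1rl1 and Il33 (calls gained), and in 63 of the latter, where calls were lost for Frzb, Hoxa9, Tgfbi and Timp3 and gained for 11 genes. The 7859 calls under Fgf8b became 7035 to 8196 over the settings and 7212 to 7410 without a single Fgf8b library. The 5313 changes from control became 4761 to 5381 over the settings and 4850 to 5894 without any single library. The highest of these was without brown control library 15. Counts of genes at least 2-fold apart depended on the processing. The 272 higher in brown became 452 with a pseudocount of 0.1 RPKM, 128 with RefSeq entries alone and 129 with the highest entry per gene, and the 384 lower became 578, 226 and 229. RefSeq entries alone left 12766 genes and the highest entry 13990 genes to test. Of the genes called under Fgf8b, 52.2% were higher in brown, 54.1% with median-of-ratios and 47.2% with upper-quartile scaling. No paired analysis was possible because no replicate number is shared between groups. Depth limits genes under about 0.5 RPKM, where few reads stand behind a value.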

Other observations

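Sox10, a transcription factor of neural crest and glia, read 0, 0.0193, 0.0183 and 0.0228 RPKM in the white and 0.944, 0.881, 1.11 and 0.778 RPKM in the brown Fgf8b libraries, and was named after its values were seen. The log2 difference was 2.58 under Fgf8b and 2.86 under control, with no called change (adjusted p = 0.308). The 12 Schwann cell markers, which include Sox10, summed to less in brown than in white libraries through Pmp22 (76.5 RPKM in white and 63.2 RPKM in brown). Of the 8 tested, 5 were higher and 2 lower in brown cells (26.9% and 24.7% of all genes), with a median of 0.84. Of the 12, 7 were under 1 RPKM in all 8 libraries. Their part in the difference was not tested.

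C1qtnf3, a secreted relative of complement C1q, had control means of 3.98 RPKM in white and 22.9 RPKM in brown cells (log2 difference 2.49). Under Fgf8b it read 0.757, 0.714, 0.444 and 0.632 RPKM in white and 0.425, 0.452, 0.787 and 0.261 RPKM in brown libraries, which overlapped (-0.40, adjusted p = 0.0869). It passed as lower in brown cells without white library 6 (adjusted p = 0.0279) or brown library 14 (adjusted p = 0.00506).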
